A study of Mus musculus with 12 samples.

Results

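The cytosolic ribosomal proteins measured here were the 75 genes whose symbol in the raw count table follows the pattern Rpl or Rps with a number (and an optional a, x or 1), the stalk genes Rplp0, Rplp1 and Rplp2, and Rpsa. They were 75 of the 13780 genes listed, 44 of the large (60S) and 31 of the small (40S) subunit, and all 75 passed the filter on low counts together with 13767 genes in all. The rule used names only and no measured value. It leaves out Rpl23 and Rpl27, whose symbols are joined to further identifiers in the table, and genes such as Fau and Rack1, which carry other names.

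RNA was sequenced from 12 libraries of CD8+ T cells, taken from the spleens of young adult wild type C57BL/6J mice by positive selection on magnetic beads. Naïve cells (4 libraries) were frozen after isolation. The media group (4 libraries) was activated for 72 h on dynabeads that carry anti-CD3 and anti-CD28, with IL-2 at 10 U/ml, in plain media, and the lactate group (4 libraries) in the same way with 40 mM sodium lactate, so that the sodium concentration was not matched between them. Each condition came from 4 mouse donors by the study's account. The labels number the libraries in a low and a high run, and 1 naïve, 1 media and 2 lactate libraries belong to the high one. The labels do not say what the runs are. Activated libraries also carry a donor tag, and some tags occur in both runs. Whether such a tag stands for the same mouse is not given, so it was read as a separate donor in each run. Read in this way, 3 donors gave a library of both activated conditions. The numbers of the library replicates used below do not always follow the donor.

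Each ribosome joins one protein of nearly every one of these genes to the ribosomal RNA, and free ribosomal proteins are short-lived, so their mRNAs are usually held near a common level. In resting T cells the mRNAs are abundant but poorly translated. Most begin with a 5′ terminal oligopyrimidine (TOP) stretch, a cytosine followed by further pyrimidines, through which the kinase mTORC1 and the RNA-binding protein LARP1 control their stability and loading onto ribosomes when T cells are activated and grow.

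To show what these mRNAs share, the first 24 bases are printed for 10 of the 11 members whose main transcript in GENCODE M21 (GRCm38) starts with a C and at least 4 more pyrimidines. The 11 were 14.7% of the 75 members, against 2.41% of 11910 coding genes of the table. Annotated starts can lie a few bases from the start used in these cells, so the other members may carry the stretch further in. Capitals mark the pyrimidine run, and the position is that of the first base.

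Rpl4 (chr9:64173375, plus strand): CTTTTCCTgtgggagcagccgggt
Rpl29 (chr9:106429538, plus strand): CTCTTCCggtctccggcgctgcgg
Rpl36 (chr17:56613416, plus strand): CTTCCTgtcccggccgccatcgga
Rps21 (chr2:180257377, plus strand): CCCTCCTgcccaatagtgctgcgg
Rps24 (chr14:24490718, plus strand): CTCTTTTCCTCCTCTCCagctccg
Rpl30 (chr15:34443222, minus strand): CCTTTCTCgctccccggccatctt
Rpl37a (chr1:72711290, plus strand): CTCTTCggacttgggcttgggttc
Rpl32 (chr6:115808747, minus strand): CTTCCTTCTTCCTCggcgctgcct
Rpl37 (chr15:5116645, plus strand): CTCTTCCggtctctttggcctcgc
Rps15a (chr7:118115677, minus strand): CTCCCgaaagggggtgtgtgtgtg

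The first 3 of these mRNAs rose on activation in media, the next 4 fell and the last 3 did not pass the test (values below). The promoter letters were mixed in the same way. RefSeq promoters of GRCm38.p6, from 250 bases before to 50 after the start, matched 55 of the members. The ETS motif CCGGAAG, on either strand, was in 23 of them (41.8%), against 18.8% of 9903 promoters of the table. For the GGGCGG of Sp factors the shares were 58.2% and 63.8%, for CACGTG (E-box) 7.27% and 10.2%, for AAGATGG (YY1) 14.5% and 7.36%, and for TATAAA 9.09% and 7.27%. Of the 23 members with the ETS letters 7 rose and 2 fell on activation in media, and of the 32 without them 7 rose and 5 fell. These calls use edgeR's adjusted p of at most 0.01, at which 28.5% of all tested genes rose and 29% fell. Whether the change goes with the letters was not tested. The 100 bases before the start are shown for 1 member that rose, Rpl41, and 2 that fell, Rps21 and Rps7, with the ETS letters of either strand in capitals.

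Rpl41 (chr10:128549169-128549268, minus strand): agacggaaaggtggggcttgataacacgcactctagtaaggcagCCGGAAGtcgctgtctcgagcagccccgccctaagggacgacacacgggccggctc
Rps21 (chr2:180257279-180257378, plus strand): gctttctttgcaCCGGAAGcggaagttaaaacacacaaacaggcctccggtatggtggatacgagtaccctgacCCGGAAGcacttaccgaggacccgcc
Rps7 (chr12:28635954-28636053, minus strand): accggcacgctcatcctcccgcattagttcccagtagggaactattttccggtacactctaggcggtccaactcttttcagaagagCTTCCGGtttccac

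Together the 75 genes took 5.37 to 5.84% of all gene counts in the naïve libraries, 5.60 to 6.68% in media and 5.74 to 7.08% with lactate. The means were 5.59 ± 0.195%, 6.00 ± 0.469% and 6.65 ± 0.614% (SD, n = 4 each). The 3 groups overlapped, since lactate replicate 1 (5.74%) lay below media replicate 4 (6.68%). Per library, naïve replicates 1 to 4 had 5.37, 5.61, 5.84 and 5.52%, the media replicates 5.89, 5.60, 5.83 and 6.68%, and the lactate replicates 5.74, 7.08, 6.95 and 6.82%. Each library held 14726900 to 21478100 counts, to 6 digits, and the 95% Wilson interval of a share was at most 0.026 percentage points wide, which covers counting error only. A share of counts does not give the RNA per cell, and in bulk samples fewer cells of a type cannot be told apart from less RNA per cell. The share also leaves out reads with more than 1 mapping place, which were not counted.

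Large subunit mRNAs weighed more after activation. The ratio of the summed TPM (counts per exon length, scaled to the same sum in every library) of the 44 large to the 31 small subunit genes was 1.27 to 1.31 in the naïve libraries, 1.48 to 1.51 in media and 1.45 to 1.47 with lactate. No 2 of these ranges overlapped. In counts the ratio was 1.20 to 1.21, 1.36 to 1.38 and 1.33 to 1.38, so that media and lactate overlapped, and the same held when TPM used the length of the main mRNA (1.10 to 1.12, 1.28 to 1.30 and 1.27 to 1.29). The ratio of the median large to the median small member, from 0.616 to 0.659, 0.635 to 0.667 and 0.627 to 0.674, did not separate any groups. Without the most abundant member of each subunit the mean ratio was 1.17, 1.45 and 1.41.

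**Figure D1:**
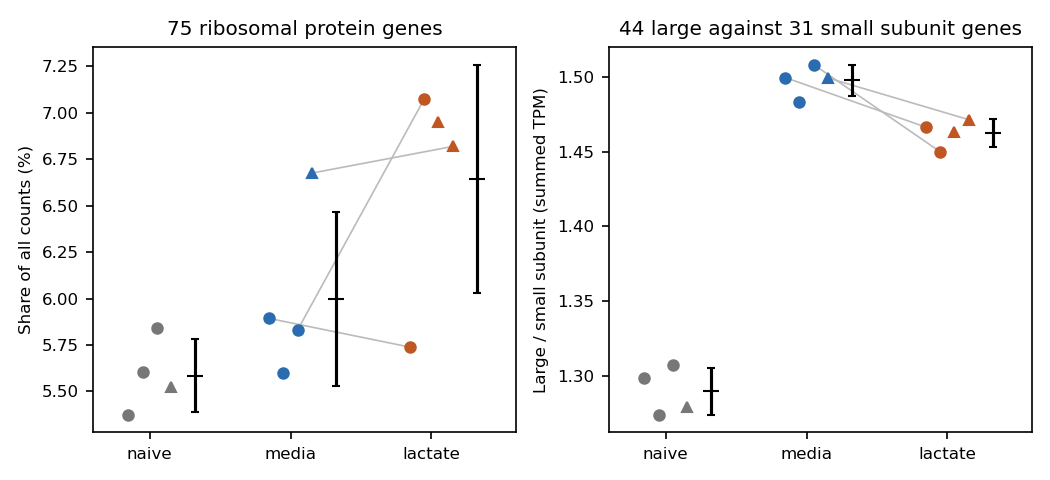
Share of all counts taken by the 75 genes (left, %) and ratio of summed TPM of large to small subunit genes (right) in each library, with axes that do not start at 0. Circles are libraries of the low and triangles of the high run of library numbers, grey lines join libraries of 1 donor, and bars are mean ± SD (n = 4). The ratio is 1.27 to 1.31 in naïve libraries and at least 1.45 in every activated one, while the shares of the groups overlap.

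On activation in media some members rose and others fell. At an adjusted p of at most 0.01 (edgeR's quasi-likelihood test, Benjamini-Hochberg over all 13767 genes), 19 members rose, 10 fell and 46 did not pass. Over all tested genes 28.5% were called higher and 29% lower, so the 25.3% and 13.3% of the members lie below that background. The median log2 fold change was 0.05 for the members and -0.03 for all genes. Among the large subunit members 14 of 44 rose and 3 fell, with a median of 0.14, and among the small subunit members 5 of 31 rose and 7 fell, with a median of -0.02. The median over all members is near 0 and turned negative under other scalings and without some libraries. The count of 19 was 10 without naïve replicate 2 or media replicate 4, 12 without naïve replicate 1 or 3 or lactate replicate 3 or 4, and 9 with cyclic loess scaling, and the count of 10 was 6 without media replicate 1. Of all genes, the fits named for the 19 called 25.2 to 29.2% higher, and that without media replicate 1 called 25.9% lower. Within the low run of library numbers (3 against 3 libraries) the medians were 0.083 for the large and -0.10 for the small subunit, and between the single libraries of the high run 0.37 and 0.11.

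**Figure D2:**
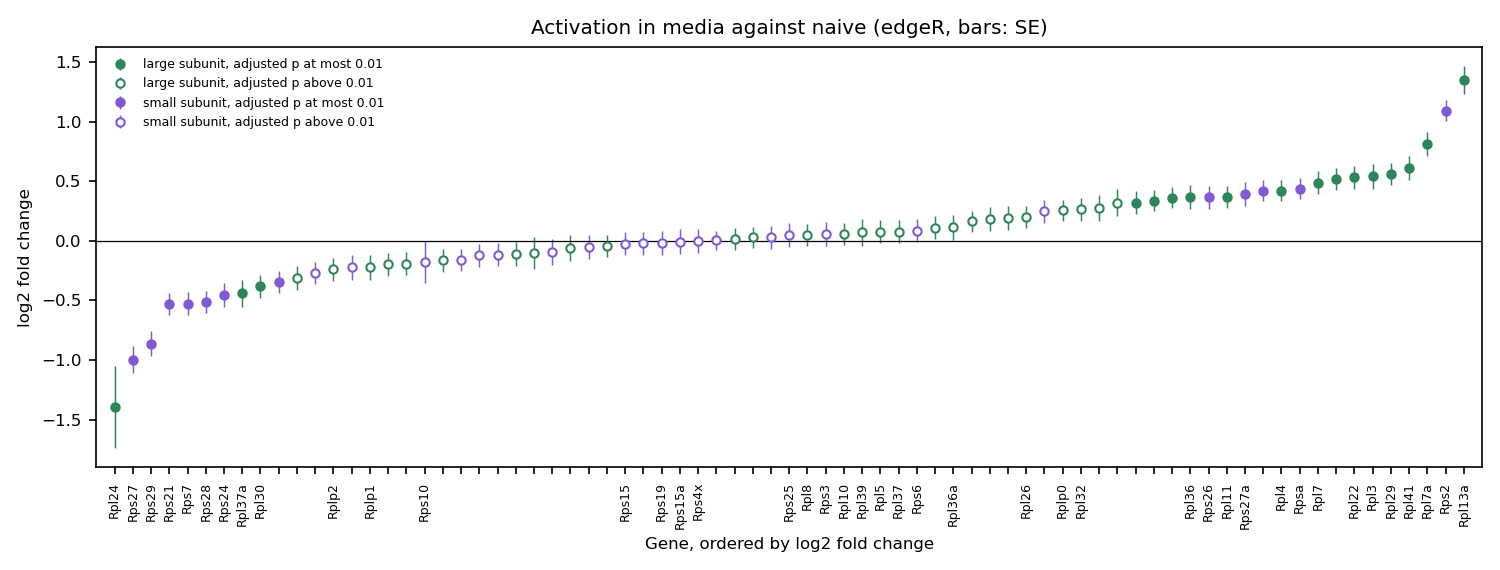
Log2 fold change of the 75 genes between media and naïve libraries, in rising order, with SE bars. Green points are large and purple points small subunit genes, filled points passed an adjusted p of 0.01, and genes named in the text are labelled. Small subunit genes make up 7 of the 10 filled points on the left, and large subunit genes 14 of the 19 on the right. These are 22.6% of the 31 small subunit genes, against 29% of all tested genes called lower. For the 44 large subunit genes it is 31.8%, against 28.5% of all tested genes called higher.

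Rps27, a zinc-finger protein of the small subunit (ENSMUSG00000090733; chr3:90212522-90213651, GRCm38), had 919.5, 925, 999 and 1006 CPM (counts scaled to library size and TMM factor) in the naïve libraries. It had 466, 446, 448 and 569 CPM in media and 407, 521, 547 and 523 CPM with lactate. All 8 activated libraries were thus far under all naïve ones, and the activated groups overlapped. Its log2 fold change was -0.997 (SE 0.11, adjusted p = 6.50e-06 from edgeR) in media and -0.95 (SE 0.11, adjusted p = 7.61e-06) with lactate against naïve. Rps29, another short zinc-binding protein of the small subunit (chr12:69157722-69159186), had 786 to 856 CPM in the naïve libraries, 394 to 524 in media and 485 to 607 with lactate. It fell by 0.86 on the log2 scale in media (SE 0.11, adjusted p = 1.19e-05) and by 0.52 with lactate (SE 0.10, adjusted p = 0.000607). Rps21, Rps7, Rps28 and Rps24 of the small subunit and Rpl37a and Rpl30 of the large subunit fell in media by 0.38 to 0.53 on the log2 scale. Rpl24 was also called lower (-1.40, adjusted p = 0.00304), at under 2 CPM. With lactate against naïve, Rps27, Rps29 and Rps7 were the members called lower, and 7 or 8 members were with DESeq2's size factors or DESeq2 itself. Of all genes 32% were called lower in the main fit, and 34.7% and 36.4% in these alternatives.

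Rps2, a protein near the mRNA entry of the small subunit (ENSMUSG00000044533; chr17:24718116-24721929), had the largest rise in media after Rpl13a, which is described further on. It had 743, 798, 817 and 773 CPM in the naïve libraries, 1657, 1507, 1708 and 1814 in media and 1813, 2096, 2117 and 2066 with lactate. Every activated library thus stood above every naïve one. The log2 fold change was 1.09 (SE 0.09, adjusted p = 2.94e-07 from edgeR) in media against naïve and 1.37 (SE 0.09, adjusted p = 3.73e-08) with lactate against naïve. Rpl7a, an RNA-binding protein of the large subunit, went from 673 to 751 CPM in naïve libraries to 1129 to 1459 in media (0.81, SE 0.10, adjusted p = 1.51e-05) and 1337 to 1658 with lactate. Rpl41, the smallest ribosomal protein, went from 387 to 442 CPM to 545 to 702 (0.61, SE 0.10, adjusted p = 0.000176). Both were thus higher in each activated library than in any naïve one.

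Members with known roles of their own gave different values on activation. The stalk, which recruits the elongation factors, did not pass as a whole: the log2 fold changes were 0.26 for Rplp0 (adjusted p = 0.0177), -0.22 for Rplp1 (0.0771) and -0.24 for Rplp2 (0.0421), from edgeR. Rpl5 and Rpl11 form the 5S RNP, which can bind Mdm2. Rpl11 rose (0.37, adjusted p = 0.00319) and Rpl5 gave 0.08 (0.495). Rpsa, also known as a laminin receptor, rose by 0.44 (adjusted p = 0.000908), and Rps27a, made as a fusion with ubiquitin, by 0.40 (0.00366). Rps26, which contacts the mRNA at the exit channel, rose by 0.37 (adjusted p = 0.00407), and Rpl22, known from T cell development, by 0.53 (0.000369). Rps6, the substrate of the S6 kinases (0.09), Rps3 (0.06), Rps19 (-0.02), Rps4x (-0.0014), Rpl10 (0.06), Rpl36a (0.12) and Rpl39 (0.07) had adjusted p values from 0.344 to 0.991.

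Members with short coding sequences stood lower on activation. Ordered in 3 equal parts by coding length, the 25 shortest (up to 403 bases) had a median log2 fold change of -0.05, with 5 called higher and 7 lower. The next 25 (up to 578 bases) had -0.02 (4 higher, 2 lower) and the 25 longest 0.11 (10 higher, 1 lower). The rank correlation with coding length was 0.359 over the 75 genes, which share libraries and depth, and -0.02 for lactate against media. The other 598 genes of the table in the shortest class had a median of 0.19. Median coding lengths were 480 bases for the large and 453 for the small subunit.

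Levels per length differed far more between members than between groups. By mean TPM over the 12 libraries, Rplp1 (13040) led, followed by Rps15 (6840) and Rpl4 (5814), and the median member had 1087. With the length of the main mRNA in place of all exons, the first 3 were Rplp1 (7980), Rps15 (5269) and Rplp2 (4897). At the other end, by TPM over all exons, were Rpl13a (220), Rps10 (9.60) and Rpl24 (3.43). These 3 are the members whose main mRNA lies by more than 50% inside exons of another annotated gene on the same strand: 59.3% for Rpl13a (Gm45713), 71.5% for Rpl24 (Gm28037) and 91.6% for Rps10 (a readthrough gene of Rps10 and Nudt3). For every other member this share was at most 10.7%. Reads that lie in 2 genes are commonly left out of counts, so the values of these 3 genes are uncertain and may come from the part of the mRNA that no other gene covers.

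Rpl13a, a large subunit protein that also takes part in translational control outside the ribosome (ENSMUSG00000074129; chr7:45125558-45128761), showed the largest rise of any member that passed the test, in each of the 3 comparisons. It had 47.5, 54.9, 57.5 and 51.7 CPM in the naïve libraries, 130.6, 119, 130.3 and 159.6 in media and 197.5, 241, 267 and 247 with lactate. The 3 groups did not overlap. Its log2 fold change was 1.35 (SE 0.12, adjusted p = 7.22e-07 from edgeR) in media against naïve and 0.82 (SE 0.12, adjusted p = 0.000255) for lactate against media. Rpl13a also hosts 4 snoRNA genes in its introns, as 29 of the members host at least 1, and the snoRNA hosts as a group had a median log2 fold change of 0.07 in media against naïve, against 0.02 for the other 46. Rpl24 had 0.279 to 1.86 CPM in all 12 libraries and Rps10 4.35 to 9.41, so their folds rest on few counts.

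With lactate most members stood slightly higher than in media. The log2 fold change was above 0 for 73 of the 75, with a median of 0.21 for the members, 0.22 for the large and 0.21 for the small subunit, and -0.0016 for all tested genes. Few passed the test singly: by edgeR's adjusted p, 7 rose and 0 fell at 0.01, or 9.33% of the members, against a background of 13.9% of all genes called higher and 11.1% called lower. At 0.05 the counts were 29 and 0, or 38.7% and 0%, against 20.8% and 18.9% of all genes. The lactate libraries lay above all media libraries for 11 members and below for 0, against 23.2% and 21.5% of all tested genes. The 500 most abundant other genes, each with a mean of 312 CPM or more, had a median of -0.04 with 78 called higher and 80 lower of 500. Whether the members differ from these genes was not tested.

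The size of this difference varied between donors. In the donor of media and lactate replicate 1 the members' median was 0.038 and 49 of 75 were higher with lactate. In the donor of media replicate 3 and lactate replicate 2 it was 0.30 with 74 higher, and in the donor of media and lactate replicate 4 it was 0.11 with 61 higher. The share of counts fell from 5.89 to 5.74% in the first of these donors and went from 5.83 to 7.08% and from 6.68 to 6.82% in the others. In every donor 48 members were higher. With the donor as a block, 1 member (Rpl13a) was called higher and 0 lower, and 72 of 75 were above 0. Rpl13a is among the members with uncertain values described above, and the next lowest adjusted p in this edgeR fit was 0.0266 (Rpl8). Over all genes that fit called 4.54% higher, and the same block on the activated libraries alone, chosen after seeing the data, called 15.6% higher and again 1 member. Single libraries also set the count of 7. It was 1 when lactate replicate 3 or 4, or any of media replicates 1 to 3, was left out, 3 without naïve replicate 1, 2 or 3, 4 without lactate replicate 2, 11 without naïve replicate 4 or media replicate 4 and 13 without lactate replicate 1. The share of all genes called higher in these fits was lowest, 9.76%, when media replicate 2 was left out and highest, 18.7%, when naïve replicate 4 was, and leaving out lactate replicate 1 gave 11.0%. Lactate replicate 1 had the lowest lactate value for 70 of the 75 members and media replicate 4 the highest media value for 73, so the members varied together between libraries of a group. Within the low run (2 lactate, 3 media libraries) the median was 0.19, and within the high run (2 lactate, 1 media) 0.12.

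**Figure D3:**
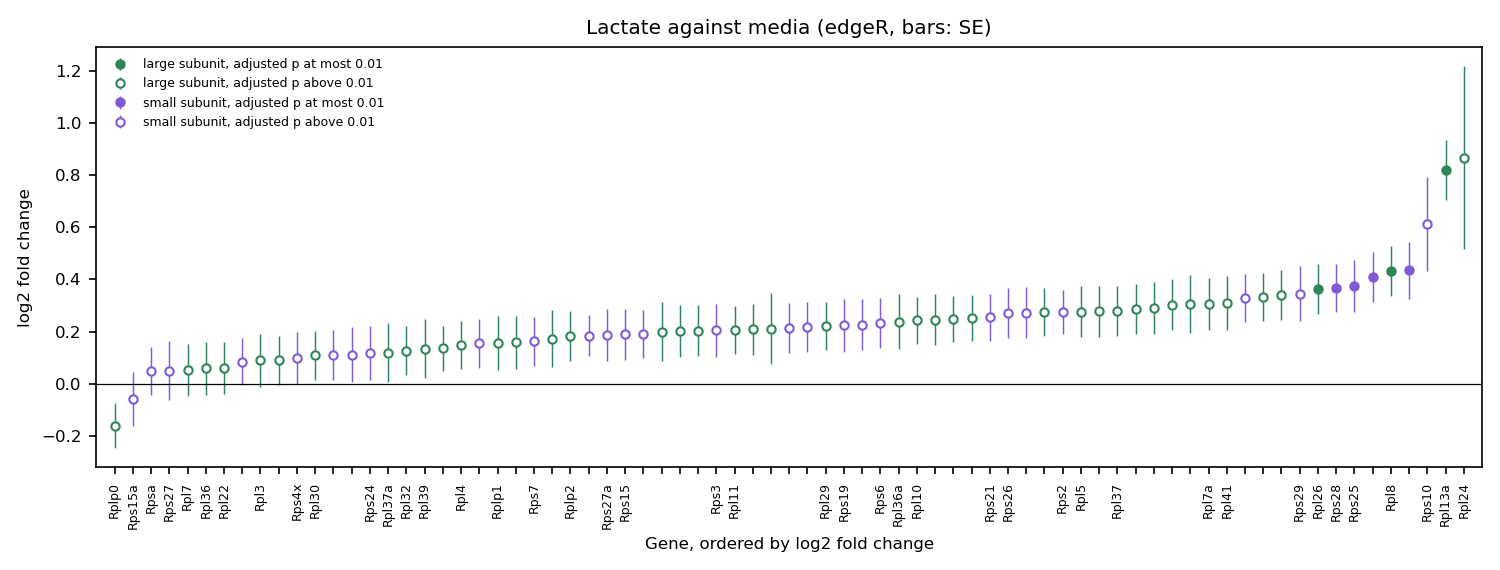
Log2 fold change of the 75 genes between lactate and media libraries, in rising order, with SE bars and the same colours and labels as in the plot for activation. Of the points, 73 lie above 0 and 7 are filled (adjusted p of at most 0.01). The 7 are 9.33% of the members, against 13.9% of all tested genes called higher.

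Among the 7 members that rose with lactate were Rpl13a, Rpl8, Rps28, Rpl26 and Rps25. Rpl8, which lies at the peptidyl transferase centre, had 1663, 1504, 1699 and 1898 CPM in media and 1986, 2379, 2418 and 2346 with lactate, with no overlap (0.43, SE 0.09, adjusted p = 0.00332 from edgeR). Rps28, a protein at the mRNA exit, had 146 to 188 CPM in media and 194 to 226 with lactate, again without overlap (0.37, SE 0.09, adjusted p = 0.00694). Rpl26, a regulator of p53 translation, gave 0.36 (adjusted p = 0.00965) and Rps25, needed for some viral internal ribosome entry, 0.38 (0.00969). With the donor block all of the 7 but Rpl13a missed the threshold, and over all alternatives the adjusted p reached 0.0442 for Rpl8 and 0.0968 for Rpl26. Rpl24 (0.87, adjusted p = 0.0674) and Rps10 (0.61, adjusted p = 0.0169) did not pass.

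At the lower end were Rplp0, Rps15a, Rps27 and Rpsa. Rplp0, the base of the stalk and a common reference gene (chr5:115559467-115563727), had 2527, 2480, 2535 and 2935 CPM in media and 2098, 2286, 2471 and 2515 with lactate, and 2144 to 2259 in naïve libraries. It was the only member with a negative estimate in every setting, at -0.16 (SE 0.09, adjusted p = 0.158 from edgeR), and its groups overlapped. Rps15a gave -0.06 (adjusted p = 0.696), Rpsa 0.05 (0.705) and Rps27 0.05 (0.757). These last estimates changed sign in some settings. The other stalk genes Rplp1 and Rplp2 had 0.16 and 0.18, and Rpl5, Rpl11 and Rps6 had 0.28, 0.21 and 0.23, with adjusted p values from 0.0405 to 0.254.

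Set against naïve cells, the lactate group had 36 members higher and 3 lower by edgeR at 0.01, with 33% and 32% of all genes called. These are 48% and 4% of the members. The lactate libraries lay above all naïve ones for 39 members and below for 8, against 35% and 32.8% of all genes, and the media libraries lay above all naïve ones for 25 and below for 14, against 30.7% and 30.5%. By subunit, 27 of 44 large subunit members rose and 0 fell, and 9 of 31 small subunit members rose and 3 fell, with medians of 0.36 and 0.18. The counts were 21, 22 and 23 higher without naïve replicate 2, lactate replicate 3 and lactate replicate 4. Without naïve replicate 2 or 3, media replicate 4 or lactate replicate 3 or 4, from 5 to 7 were lower. This comparison shares its libraries with the other comparisons, so its values are not independent of them. The largest rises were those of Rpl13a (2.17), Rps2 (1.37), Rpl7a (1.12) and Rpl41 (0.93). Members that passed here and not in media included Rps6 (0.32, adjusted p = 0.00971), Rpl10 (0.30, 0.0093), Rpl5 (0.36, 0.00549) and Rpl36a (0.35, 0.00834). These calls lie near the threshold: of 27 alternatives, Rps6 and Rpl10 passed in 6, Rpl36a in 8 and Rpl5 in 13, and the difference between the comparisons was not tested.

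Several ribosomal proteins have a second gene, and 1 such pair moved in opposite directions on activation. Rps27 and Rps27l encode closely similar proteins, and Rps27l is known as a target of p53. The coding sequences of their main transcripts, 255 bases each with the stop codon, were identical at 194 bases (76.1%). No stretch of over 11 bases was shared between the mRNAs of this pair, so reads of 71 bases can be told apart between them. The paralog Rps27rt was not compared, and Rps27 reads that also match another place are not counted. The coding sequences of the pair are printed below with the 61 differing bases in capitals. Rps27 lies on the minus strand of chromosome 3 and Rps27l on the plus strand of chr9:66946086-66949516.

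Rps27: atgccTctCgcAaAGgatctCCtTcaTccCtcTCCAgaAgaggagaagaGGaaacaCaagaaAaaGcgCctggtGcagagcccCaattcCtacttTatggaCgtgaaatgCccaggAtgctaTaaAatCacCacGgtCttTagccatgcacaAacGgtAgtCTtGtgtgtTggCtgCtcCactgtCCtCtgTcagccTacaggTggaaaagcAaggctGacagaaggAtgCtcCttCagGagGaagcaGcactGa
Rps27l: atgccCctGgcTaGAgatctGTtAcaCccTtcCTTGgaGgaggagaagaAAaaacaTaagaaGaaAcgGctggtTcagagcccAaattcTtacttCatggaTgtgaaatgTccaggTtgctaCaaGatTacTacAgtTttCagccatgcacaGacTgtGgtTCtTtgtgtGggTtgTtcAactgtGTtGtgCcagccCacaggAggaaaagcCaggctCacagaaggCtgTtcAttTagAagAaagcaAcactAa

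Rps27l had 13.1, 15.6, 13.3 and 20.7 CPM in the naïve libraries, 83.6, 48.0, 80.0 and 63.7 in media and 130.1, 120.4, 124 and 119.9 with lactate. The 3 groups did not overlap, in the order naïve, media, lactate. The log2 fold change was 2.14 (SE 0.19, adjusted p = 6.69e-07 from edgeR) in media against naïve and 0.85 (SE 0.18, adjusted p = 0.0025) for lactate against media. As Rps27 fell on activation, the part of Rps27l in the counts of the pair went from 1.31 to 2.01% in naïve libraries to 9.73 to 15.2% in media and 18.5 to 24.2% with lactate, with 95% Wilson intervals at most 1.64 percentage points wide. Its main mRNA lies under no other gene.

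**Figure D4:**
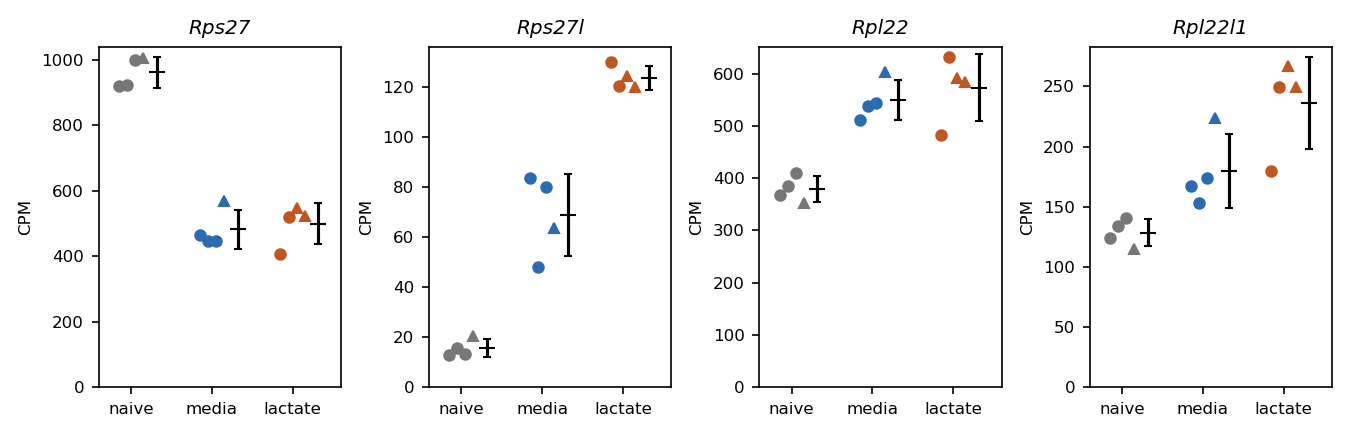
CPM of Rps27, Rps27l, Rpl22 and Rpl22l1 in each library, from 0, with circles for the low and triangles for the high run of library numbers and bars for mean ± SD (n = 4). Rps27 is lower and Rps27l higher in every activated than in every naïve library, while Rpl22 and Rpl22l1 are both higher.

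The pair Rpl22 and Rpl22l1 did not show this pattern. Rpl22l1 had 115 to 141 CPM in naïve libraries, 153 to 224 in media and 180 to 267 with lactate, and it rose on activation in media (0.48, SE 0.14, adjusted p = 0.00894 from edgeR), as Rpl22 did. This call was lost in 17 of 27 alternatives, with an adjusted p of up to 0.0691 and a log2 fold change down to 0.30 without media replicate 4. Its part of the pair was 24.6 to 25.8%, 22.1 to 27.1% and 27.2 to 31.1%. Rpl7l1, a nucleolar relative of Rpl7, was not changed by activation at this threshold (-0.17, adjusted p = 0.296) and rose with lactate from 44.4 to 65.0 CPM to 113 to 154 CPM (1.27, SE 0.14, adjusted p = 7.74e-05), without overlap. Rps4l and Rps27rt, at under 6 CPM, fell on activation (-2.34 and -1.80, adjusted p = 0.00112 and 0.00464). Rpl39l (1.39, adjusted p = 0.0279) and Rpl36al (-0.13, 0.605) did not pass in media against naïve. Fau, made as a fusion with a ubiquitin-like protein, did not pass (0.04, adjusted p = 0.762). Of the main mRNA of Rpl36al 63.1% lies in Gm49383, so its values are uncertain. Of the rows with joined symbols, which were looked at after their values were known, Rpl27 rose with lactate (0.46, SE 0.10, adjusted p = 0.00267) and Rpl23 did not pass (0.22, 0.0854).

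Genes that serve the ribosomal proteins were looked at next, in lists chosen with earlier results of these data known. Their shares are thus a description and no independent support. Of 18 dedicated chaperones and factors that release the subunits, 10 rose with lactate against media (55.6%, against 13.9% of all genes) and 0 fell (against 11.1%), with a median log2 fold change of 0.55. They ranged from Sbds (-0.16, adjusted p = 0.176), which frees the 60S subunit of Eif6, to Grwd1 (1.70, adjusted p = 8.50e-05), which carries Rpl3. Heatr3, which brings Rpl5 to the nucleus, rose by 1.60, Eif6 by 1.25 and Ltv1, which holds Rps3 during export, by 1.12. In media against naïve, 0 rose and 6 fell (33.3%), against 28.5% and 29% of all genes, from Grwd1 (-0.80) to Efl1 (0.28, adjusted p = 0.0303), with a median of -0.04. Of 20 other mRNAs of translation known to carry a TOP stretch, 6 rose with lactate (30%) and 0 fell (median 0.21), from Hnrnpa1 (-0.03) to Eif2s3x (0.68), and they include Rack1, the scaffold on the small subunit (0.37, adjusted p = 0.00821). On activation in media 13 of them rose (65%) and 2 fell (10%, median 0.49), from Tpt1 (-0.94) to Npm1 (1.60).

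Of 18 genes of the mTORC1, LARP1 and S6 kinase arm, 2 rose (11.1%) and 1 fell (5.56%) with lactate (median 0.15), which is no more than among all genes. Larp1, the TOP mRNA binder, stood at the top with 0.80 on the log2 scale (adjusted p = 0.00138 from edgeR) and Tsc1, an mTORC1 inhibitor, at the bottom with -0.48 (0.00782). In media against naïve 2 rose (11.1%) and 4 fell (22.2%, median -0.21), again less than the background. The 18 genes ranged from Deptor (-0.94, adjusted p = 0.0294 from edgeR) to Eif4ebp1 (3.38), a target of mTORC1. The 77 ribosomal proteins of the mitochondrion, a separate machine coded by other genes, gave 51 higher (66.2%) and 0 lower with lactate (median 0.59) and 50 higher (64.9%) and 1 lower on activation (median 0.60). Whether the lists differ from each other was not tested.

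**Figure D5:**
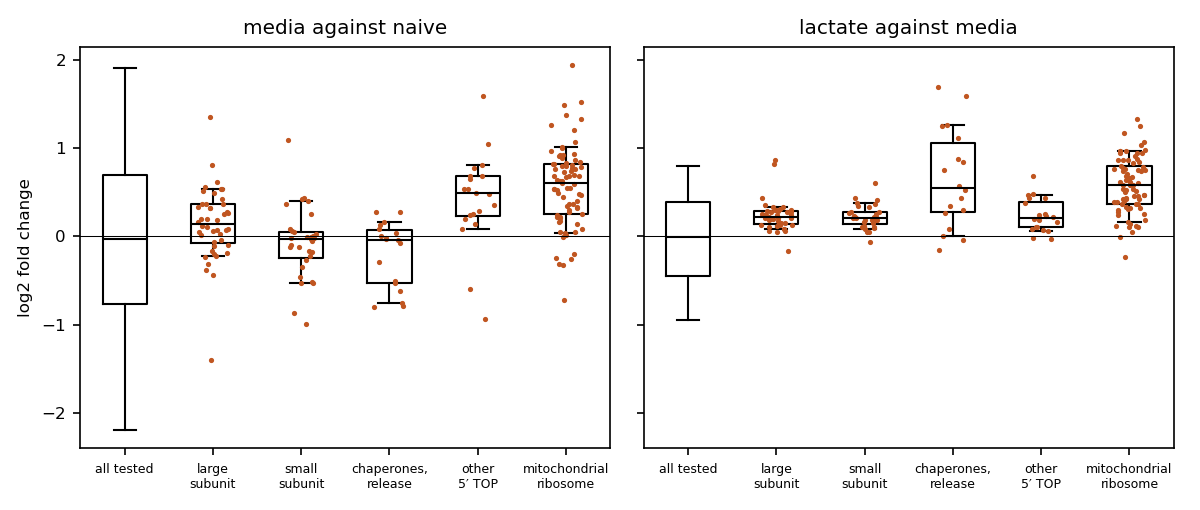
Log2 fold changes of all tested genes, the large and small subunit genes, the 18 chaperones and release factors, the 20 other TOP mRNAs and the 77 mitochondrial ribosomal proteins. Boxes give quartiles and whiskers the 10th to 90th percentile, and points are genes. With lactate the subunit genes lie close around 0.21 to 0.22, below the medians of the chaperones (0.55) and of the mitochondrial ribosome (0.59).

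The libraries were also checked for the cells they hold. All 9 CD8+ T cell markers were counted in every group, summing to 3185 to 5858 CPM in naïve, 4211 to 5139 in media and 3151 to 3962 with lactate. Markers of other cells were also counted in the naïve libraries. The 6 B cell markers summed to 486 to 1178 CPM there, 9.14 to 16.7 in media and 6.10 to 7.86 with lactate, and the 9 myeloid markers to 539 to 1639, at most 1.31 and at most 0.666, with S100a8 and S100a9 at 0 in all activated libraries. The 4 measured red cell markers summed to 84.1 to 3369 CPM in naïve libraries and at most 1.90 in activated ones, with Alas2 at 0 in media, and the 4 NK cell markers to 44.9 to 139, at most 0.382 in media, with Ncr1 and Klra8 at 0 there, and at most 1.54 with lactate. The 3 CD4+ T cell markers summed to 26.1 to 55.3, 44.6 to 55.8 and 76.0 to 89.4 CPM. These 3 markers did not move together. By edgeR at 0.01, 1 was called higher and 2 lower in media against naïve, and likewise in lactate against naïve. Over all genes 28.5% and 29% were called higher and lower in media, and 33% and 32% with lactate. The log2 fold changes of the markers ran from -5.95 to 1.11 and from -5.39 to 1.88. The part of other cells in the differences between naïve and activated libraries was not tested.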

How the data were processed

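PolyA RNA of CD8+ T cells was sequenced as stranded libraries. The authors aligned reads to GRCm38 with STAR 2.7.5b, which also served to take out PCR duplicates, and assigned reads with 1 mapping place to exons with featureCounts (Ensembl annotation), and the deposited values are raw counts per gene. Whether featureCounts used strand is not given in the sources used here. In 12 libraries, 13767 of 13780 genes with at least 1 CPM in at least 3 libraries were tested with edgeR 4.0.16 in R 4.3.3 (TMM, quasi-likelihood test, all groups in 1 fit without a block, Benjamini-Hochberg adjusted p of at most 0.01). In every library 72 of the 75 members had more counts than exon bases, up to 85.1 per base, which collapsing single-end reads by position alone would not leave, so the counts do not match the stated duplicate removal. CPM and TPM were computed from the counts and listed exon lengths. DESeq2 1.42.0 and limma 3.58.1 served as alternatives.

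Named genes were the 4 largest and 4 smallest fold changes per comparison, the highest and lowest 3 by TPM, members with known roles, and the paralogs. Some members are counted in all totals but not reported here singly. Members and lists were chosen with earlier results of these data known. Donors read from the tags within each run of library numbers pair 3 media with 3 lactate libraries. Their deviations from the group means correlated in each pair (r = 0.374, 0.211 and 0.553). The labels name no donor for each naïve library.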

Additional observations from a re-analysis of the deposited data

Results flagged for a closer look

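In 11 of the 117 groups of 4 values tested, 1 library lay further from the others than Dixon's 95% limit for 4 samples allows. Chance gives about 1 in 20 for a single group. The groups share the same libraries and are not independent, so whether 11 is more than chance gives cannot be judged. Media replicate 4 was the highest media library for Rplp0 (2935 CPM, nearest 2535), Rps27 (569, nearest 466) and Rps6 (710.4, nearest 622). Lactate replicate 1 was the lowest lactate library for Rpsa (1564 CPM, nearest 1870.0), Rps2 (1813, nearest 2066), Rpl41 (675, nearest 797), Rps27a (606, nearest 760.3), Rps6 (631, nearest 780.4), Rpl11 (716, nearest 867), Rps3 (1832, nearest 2348) and Rpl36a (408, nearest 507).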

How the results depend on the processing

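Of 1263 values of named genes under the alternatives, 1129 kept direction and side of the threshold, 114 lost and 8 gained the call and 12 reversed. Of 303 summary values 231 stayed close, 64 moved and 8 reversed. The cause was not tested.

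The members called higher with lactate against media (7) were 12 with DESeq2, 3 with its size factors or with total counts, 2 with upper quartile scaling, 1 with a gene length spline, 29 at an adjusted p of 0.05, and 1 to 13 when each library was left out. With the replicate block they were 4 by title number and 1 by donor. Chosen after seeing the data, the donor block on activated libraries alone and the fit of only the donors with both conditions each gave 1. Of all genes, 16.3% were called higher with DESeq2, 12.6% with its size factors, 12.4% with total counts and 13.1% with upper quartile scaling. The shares were 13.5% with the spline, 20.8% at 0.05, 13.2% with the title number block and 4.54% with the donor block. That block on activated libraries alone gave 15.6%, and the fit of donors with both conditions 5.97%. Fits without single libraries gave 9.76 to 18.7%. Title numbers 1 and 4 join the same libraries as donor pairs (r = 0.374 and 0.553). Title numbers 2 and 3 join different donors and had r = 0.297 and 0.0038, against 0.211 for the remaining donor pair. Which pairing is better was not tested.

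For media against naïve, the members' median was -0.0114 with DESeq2, -0.0112 with its size factors, -0.0787 with cyclic loess and -0.0766 to 0.069 without single libraries. The members higher were 9 with cyclic loess and 10 to 20 without single libraries, and those lower 6 to 13. Of all genes, cyclic loess called 29.2% higher, and the fits without single libraries 25.2 to 30.8% higher and 25.7 to 30.5% lower. For lactate against naïve, the members lower (3) were 8 with DESeq2, 7 with its size factors, cyclic loess, a minimum of 10 counts, a term for the library run or an adjusted p of 0.05, 6 with upper quartile or total counts, and 2 to 7 without single libraries, and those higher 21 to 41. Of all genes these fits called from 29.0% (without naïve replicate 1) to 37.1% (adjusted p of 0.05) lower. Without single libraries 29.2 to 35.3% were called higher. The gene length spline moved the median of all genes in that comparison from 0.01 to 0.18, and that of the members from 0.30 to 0.32.

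The share of TPM was 12.0, 12.4 and 13.0% (naïve, media, lactate), and without the 100 most abundant other genes in the total the share of counts was 6.44, 7.05 and 7.88%. The large to small ratio was 1.21, 1.37 and 1.36 in counts, 0.635, 0.649 and 0.649 for the median member, 1.17, 1.45 and 1.41 without the top member of each subunit and, chosen after seeing the data, 1.11, 1.29 and 1.28 with main mRNA length.

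With lactate against media, the spline turned Rps15a to 0.058, Rpsa to -0.0200 and Rpl22 to -0.0207. The Rps27 log2 fold change, lactate against media, was -0.0179 with the spline, -0.0334 with the donor block, -0.0282 with that block on activated libraries alone and -0.0432 for donors with both. Rps15a ran from -0.0983 to 0.0217 without single libraries. Against naïve, cyclic loess turned Rpl24 to 0.60 and Rplp0 to -0.0413, and Rplp0 ran from -0.0031 to 0.15 without single libraries.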
